A study of Mus musculus with 18 samples.

Results

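In axoplasm of sciatic nerve and of dorsal root, RNA precipitated by an antibody to Kif5A was set against RNA precipitated by control IgG, and the ratio of these was compared between the tissues. For each gene, the ratio is the log2 of the level in Kif5A precipitates over that in IgG precipitates of the same tissue, and the difference is the sciatic nerve ratio minus the dorsal root ratio. A positive difference means a higher ratio in sciatic nerve. The comparison used 12 of the 18 libraries, all precipitates, and the 6 input libraries are given beside them as levels only. It was tested for 12551 of the 12697 genes that had a transcript listed for both tissues, and 146 genes with low counts were left out.

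Kif5A is a neuronal heavy chain of kinesin-1, the motor that walks along microtubules from the cell body toward the axon tip. Kinesin-1 moves vesicles, mitochondria and, through RNA-binding proteins, granules that hold mRNA, which lets axons make proteins far from the nucleus. In an RNA immunoprecipitation, an antibody pulls a protein out of a lysate with the RNA attached to it, and an isotype control antibody of no known target shows which RNA comes down without it.

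The animals were C57B6 mice with no age, treatment or genetic change given in the labels. The 4 groups were Kif5A precipitates of sciatic nerve (SN), IgG precipitates of SN, Kif5A precipitates of dorsal root (DR) and IgG precipitates of DR, with 3 libraries in each. The lysates were made from tissue of the same mice, with 5 animals pooled in each of 3 biological repeats, so an animal's own value cannot be read. The antibodies were a rabbit polyclonal against Kif5A and rabbit IgG, and cDNA was amplified with the SMART-Seq v4 kit. The p-values below measure the spread between the libraries of a group, and the main fit took no account of repeats that groups may share.

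Counts of named transcripts summed to between 14658466 and 19897848 in SN Kif5A libraries, 21323159 and 22580824 in SN IgG libraries, 14731865 and 18705668 in DR Kif5A libraries and 11584418 and 18314126 in DR IgG libraries. Between 1.12% and 2.01% of the joined genes had no count in an SN Kif5A library, against 6.73% to 8.88% in an SN IgG library, and between 0.685% and 1.64% in a DR Kif5A library, against 5.65% to 9.18% in a DR IgG library. The lysates were labelled as axoplasm, and they held mRNA of many cells of the nerve. Summed levels of myelinating Schwann cell markers (20 of 21 listed genes tested) ran from 7199 to 28314 CPM in SN Kif5A libraries and 6633 to 27139 CPM in SN IgG libraries, and those of sensory neuron markers (11 of 27 tested) from 1342 to 2631 CPM and 1425 to 2384 CPM in the same groups. The tissues were told apart by fat and glia: adipocyte markers summed to 13529.5 to 99666 CPM in SN Kif5A libraries and 1219 to 1382 CPM in DR Kif5A libraries, and oligodendrocyte and astrocyte markers to 476 to 553 CPM in SN Kif5A libraries and 3201 to 3608 CPM in DR Kif5A libraries. In such bulk lysates, fewer cells of a type and less RNA per cell cannot be told apart.

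The ratio differed between the tissues in 2 of 12551 genes, 0.0159% (1 gene, 0.00797%, in each direction), at an adjusted p under 0.05 in edgeR's quasi-likelihood test. The difference was positive for Mmp9, a secreted protease that cuts collagen and gelatin, and negative for Dab2ip, a Ras GTPase-activating scaffold protein. At an unadjusted p under 0.05 there were 800 genes, 6.37%, of which 460 (3.67%) had a positive and 340 (2.71%) a negative difference. Within one tissue, 6 genes (0.0478%) had a higher level with Kif5A than with IgG in sciatic nerve and none a lower one. At an unadjusted p under 0.05 there were 1060 genes in that tissue (8.45%), 776 higher (6.18%) and 284 lower (2.26%). In dorsal root none passed the same test (0%), while 750 genes (5.98%) had an unadjusted p below the threshold, 543 higher (4.33%) and 207 lower (1.65%), DESeq2 gave 150 calls, edgeR's likelihood ratio test 128, edgeR with all 18 libraries 16 and limma-voom 2. The number of calls depended on the method: DESeq2 gave 187 genes for the difference, limma-voom 1 (Dab2ip), and the fits with the replicate number as a block none.

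Mmp9 (chromosome 2, 164940780 to 164955850, GRCm38) had levels (CPM, counts scaled to the total of the library) of 18.6, 8.48 and 26.0 CPM in sciatic nerve Kif5A precipitates, against 0.0973, 0.440 and 0.0908 CPM in sciatic nerve IgG precipitates. It had 30.7, 32.4 and 27.0 CPM in dorsal root Kif5A precipitates, against 56.3, 91.7 and 41.7 CPM in dorsal root IgG precipitates. Kif5A libraries were thus higher than IgG libraries in sciatic nerve and lower in dorsal root, with no overlap in either tissue. The sciatic nerve ratio was 6.42 (SE 0.78, adjusted p = 0.0114) and the dorsal root ratio -1.02 (SE 0.61, adjusted p = 0.989), a difference of 7.44 (SE 0.97, adjusted p = 0.0364). The inputs held 4.38, 6.81 and 7.85 CPM in sciatic nerve and 12.3, 16.2 and 19.8 CPM in dorsal root. The SN IgG libraries were thus far below their inputs, and those of the other groups lay above theirs. The DR IgG mean was 63.2 CPM, against 16.1 CPM in the dorsal root inputs. Over the 3 libraries of a group, Mmp9 had 918 counts with Kif5A and 13 with IgG in sciatic nerve. Mmp9 is a neutrophil gene, and the neutrophil list (11 of 20 genes tested) summed to 19.0 to 36.7 CPM in SN Kif5A libraries, against 10.8 to 51.4 CPM in SN IgG libraries, which overlapped. These sums include Mmp9, which made up a large part of those with Kif5A and little of those with IgG. The sums of the other members alone were not computed. When each of the 12 libraries was left out in turn, the call held without DR IgG replicate 3, SN IgG replicate 2 or SN IgG replicate 3 and was lost without any of the other 9, with an adjusted p of up to 0.246. The difference kept its sign in all of these, between 7.05 and 8.51.

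Dab2ip (chromosome 2, 35558266 to 35730994) showed the opposite arrangement. It had 6.37, 3.21 and 5.38 CPM in sciatic nerve Kif5A precipitates, against 17.5, 28.8 and 24.2 CPM in sciatic nerve IgG precipitates. It had 5.47, 3.27 and 5.74 CPM in dorsal root Kif5A precipitates, against 0 CPM in each of the 3 dorsal root IgG precipitates. The Kif5A libraries of both tissues covered the same range, between 3.21 and 6.37 CPM, while the IgG libraries were the highest of all groups in sciatic nerve and empty in dorsal root. The fitted difference was -11.68 (SE 1.41, adjusted p = 0.0364), a value that is no bound because a group was at 0. From the summed counts, the Kif5A level was at least 73.8-fold higher than that of IgG in dorsal root, against a floor of 3 counts over the group, and 0.205 times that of IgG in sciatic nerve. These sums take the 2 of 4 listed transcripts that stood in both tables, and over all listed transcripts the DR IgG libraries held 37 counts and the DR Kif5A libraries 297. The difference was then -4.69 with an adjusted p of 0.534, so the call rested on the transcripts counted. It was also lost when any single library was left out except DR IgG replicate 3 or SN IgG replicate 3, with an adjusted p of up to 0.246.

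The genes with the next smallest p and a positive difference missed the threshold, and they shared an SN IgG group near 0. Fars2, the mitochondrial phenylalanyl-tRNA synthetase (chromosome 13, 36117412 to 36726280), had 26.2, 13.5 and 5.32 CPM in sciatic nerve Kif5A precipitates, against 0, 0.0488 and 0 CPM in sciatic nerve IgG precipitates. It had 8.10, 6.15 and 5.38 CPM in dorsal root Kif5A precipitates, against 12.2, 13.2 and 8.95 CPM in dorsal root IgG precipitates, a difference of 10.15 (SE 1.47, adjusted p = 0.0526). With 1 count over the SN IgG libraries, the ratio of summed counts in sciatic nerve was 928 (95% interval 166 to 36706), and the interval covers counting error only. Brf2, an initiation factor of RNA polymerase III (chromosome 8, 27123364 to 27128680), had 19.9, 16.6 and 13.9 CPM in sciatic nerve Kif5A precipitates, against 0.0486, 0.0488 and 0.136 CPM in sciatic nerve IgG precipitates. It had 18.9, 7.93 and 17.6 CPM in dorsal root Kif5A precipitates, against 13.4, 13.2 and 4.48 CPM in dorsal root IgG precipitates, where the antibodies overlapped, and a difference of 7.08 (SE 1.12, adjusted p = 0.0778). Both genes passed the test within sciatic nerve, with adjusted p-values of 0.0172 for Fars2 and 0.0114 for Brf2, and neither did within dorsal root.

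Chga, Syt13, Cog1 and Rab15 are genes of secretory vesicles, the Golgi and endosomes. Chga encodes chromogranin A, a core protein of dense-core vesicles (chromosome 12, 102554969 to 102565028), and had 1.19, 1.79 and 2.19 CPM in sciatic nerve Kif5A precipitates, against 0, 0 and 0.0454 CPM in sciatic nerve IgG precipitates. It had 17.2, 16.4 and 33.1 CPM in dorsal root Kif5A precipitates, against 28.0, 39.0 and 38.2 CPM in dorsal root IgG precipitates, with 0.863, 0.259 and 4.04 CPM in the sciatic nerve inputs and 13.2, 12.2 and 16 CPM in the dorsal root inputs. Every dorsal root library thus lay above every SN precipitate, and the difference was 6.89 (SE 1.14, adjusted p = 0.0838), with 1 count over the SN IgG libraries and a ratio of summed counts there of 109 (95% interval 19.2 to 4369). Syt13, a member of the synaptotagmin family of membrane trafficking proteins, had 1.44, 3.39 and 5.49 CPM in sciatic nerve Kif5A precipitates, against 0.0486, 0.0977 and 0 CPM in sciatic nerve IgG precipitates. It had 15.3, 18 and 10.3 CPM in dorsal root Kif5A precipitates, against 28.1, 15.4 and 17.5 CPM in dorsal root IgG precipitates, a difference of 6.46 (SE 1.28, adjusted p = 0.168). Cog1, a subunit of the tethering complex of the Golgi (chromosome 11, 113649169 to 113667054), had 17.6, 4.24 and 6.97 CPM in sciatic nerve Kif5A precipitates, against 0, 0.0977 and 0 CPM in sciatic nerve IgG precipitates. It had 15.7, 29.7 and 4.97 CPM in dorsal root Kif5A precipitates, against 48.0, 18 and 35.3 CPM in dorsal root IgG precipitates, and its difference was 8.96 (SE 1.54, adjusted p = 0.102). In these genes the SN IgG libraries were the lowest of the 4 groups, with 1 to 3 counts in all, and the dorsal root antibodies overlapped. Rab15, a small GTPase of endosome recycling, had a difference of 7.89 (adjusted p = 0.168), with 3 counts over the SN IgG libraries and a ratio of summed counts there of 250.0 (95% interval 85.2 to 1215).

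The other positive genes named by their p also missed the threshold. Ctu1, which modifies the wobble base of tRNA, had 29.5, 23.2 and 33.4 CPM in sciatic nerve Kif5A precipitates, against 1.75, 1.32 and 4.22 CPM in sciatic nerve IgG precipitates. It had 26.3, 26.5 and 26.6 CPM in dorsal root Kif5A precipitates, against 27.1, 30.9 and 41.7 CPM in dorsal root IgG precipitates, a difference of 3.86 (SE 0.77, adjusted p = 0.168). The SN IgG libraries alone stood apart, since the SN and DR Kif5A libraries and the DR IgG libraries all lay between 23.2 and 41.7 CPM. Faim2, a membrane protein of neurons that restrains Fas-mediated death, had 1.37, 4.24 and 0.591 CPM in sciatic nerve Kif5A precipitates, against 0.0486, 0 and 0.0454 CPM in sciatic nerve IgG precipitates. It had 29.9, 27.9 and 48.4 CPM in dorsal root Kif5A precipitates, against 56.6, 25.9 and 49.7 CPM in dorsal root IgG precipitates, with a difference of 6.04 (SE 1.21, adjusted p = 0.168). Spata2, an adaptor in tumour necrosis factor receptor signalling, and Nme7, of the nucleoside diphosphate kinase family, had differences of 4.23 and 8.74, each with an adjusted p of 0.168.

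**Figure D1:**
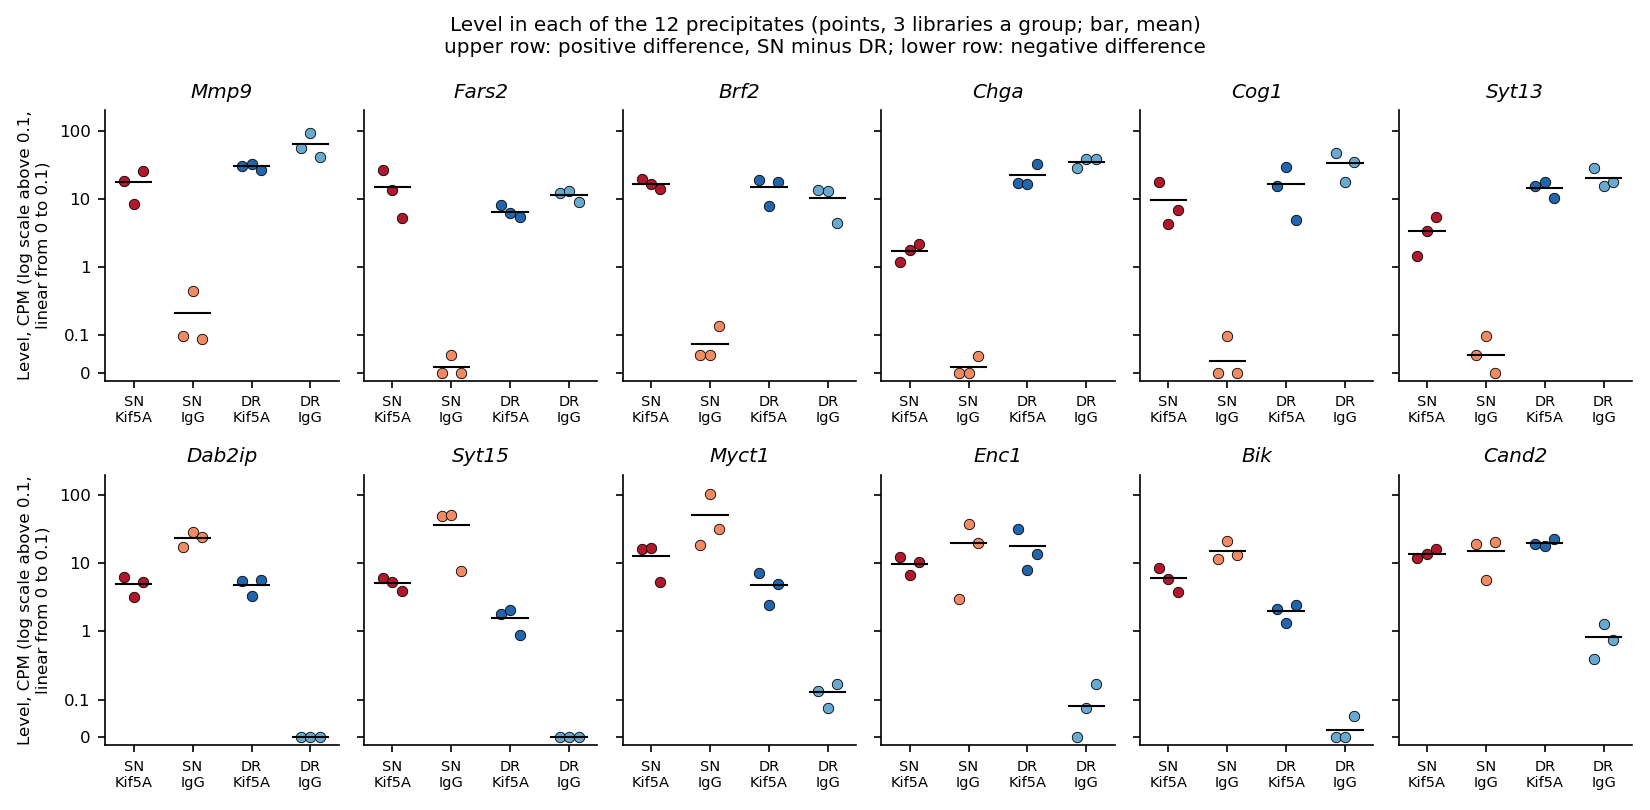
Level in CPM (log axis above 0.1, linear below) of 12 genes in each of the 12 precipitates, with 3 points a group and a bar at the mean; groups run from SN Kif5A, SN IgG, DR Kif5A to DR IgG. In the upper genes, with a positive difference, the SN IgG libraries are the lowest group, and in the lower genes, with a negative one, the DR IgG libraries are; Dab2ip and Syt15 stand at 0 in all 3 DR IgG libraries.

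In the 12 genes named for a negative difference, the DR IgG libraries were the lowest group. Syt15, another synaptotagmin relative (chromosome 14, 34219595 to 34230420), had 6.12, 5.23 and 3.96 CPM in sciatic nerve Kif5A precipitates, against 50.2, 50.6 and 7.81 CPM in sciatic nerve IgG precipitates. It had 1.81, 2.07 and 0.880 CPM in dorsal root Kif5A precipitates, against 0 CPM in each of the 3 dorsal root IgG precipitates. The Kif5A libraries lay below the IgG libraries in sciatic nerve and above them in dorsal root, at least 23.7-fold by summed counts in dorsal root, and the fitted difference was -10.64 (SE 1.60, adjusted p = 0.0838). Myct1, a gene of endothelial cells (chromosome 10, 5593775 to 5606904), had 16.1, 17.0 and 5.38 CPM in sciatic nerve Kif5A precipitates, against 18.5, 103 and 31.5 CPM in sciatic nerve IgG precipitates. It had 7.17, 2.47 and 4.97 CPM in dorsal root Kif5A precipitates, against 0.134, 0.0768 and 0.172 CPM in dorsal root IgG precipitates, a difference of -7.15 (SE 1.20, adjusted p = 0.0867). Endothelial markers lay on the same side, with a median difference of -0.48 and 3 of 12 genes positive, and their part in the value of Myct1 was not tested. St6galnac5, a sialyltransferase that acts on gangliosides (chromosome 3, 152817081 to 152982246), had 50.5, 39.8 and 12.9 CPM in sciatic nerve Kif5A precipitates, against 79.5, 61.2 and 23.8 CPM in sciatic nerve IgG precipitates. It had 17.8, 4.94 and 4.40 CPM in dorsal root Kif5A precipitates, against 0.134, 0.230 and 0.172 CPM in dorsal root IgG precipitates, a difference of -6.30 (SE 1.12, adjusted p = 0.127). Its sciatic nerve antibodies overlapped and its dorsal root antibodies did not.

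Enc1, a kelch-family protein that binds actin and is found in neurons (chromosome 13, 97241105 to 97253034), had 12.2, 6.83 and 10.5 CPM in sciatic nerve Kif5A precipitates, against 2.97, 38.0 and 19.6 CPM in sciatic nerve IgG precipitates. It had 32.2, 8.10 and 13.6 CPM in dorsal root Kif5A precipitates, against 0, 0.0768 and 0.172 CPM in dorsal root IgG precipitates, a difference of -8.65 (SE 1.58, adjusted p = 0.146). The 3 SN IgG libraries of Enc1 spread over more than the whole range of the SN Kif5A libraries, and only the DR IgG libraries lay apart. Cand2, which exchanges the adaptors of cullin ubiquitin ligases, had 11.8, 13.5 and 16.2 CPM in sciatic nerve Kif5A precipitates, against 19.1, 5.67 and 20.2 CPM in sciatic nerve IgG precipitates. It had 19.3, 17.7 and 23.0 CPM in dorsal root Kif5A precipitates, against 0.401, 1.31 and 0.746 CPM in dorsal root IgG precipitates, a difference of -4.74 (SE 1.00, adjusted p = 0.207). Clic6, of the chloride intracellular channel family, was the most abundant of the 12 negative genes in sciatic nerve, with 71.8, 108 and 53.8 CPM in sciatic nerve Kif5A precipitates, against 91.3, 92.7 and 91.3 CPM in sciatic nerve IgG precipitates. It had 19.3, 21.9 and 9.78 CPM in dorsal root Kif5A precipitates, against 4.28, 1.69 and 3.16 CPM in dorsal root IgG precipitates, a difference of -2.72 (SE 0.64, adjusted p = 0.271). Bik, a pro-apoptotic BH3-only protein, Tnfrsf10b, a receptor of the TRAIL death ligand, Oxtr, the oxytocin receptor, and Scel, sciellin of cornified epithelia, had differences of -7.47, -8.01, -7.55 and -11.86, with adjusted p-values of 0.155, 0.237, 0.277 and 0.237 and 1 to 5 counts over the DR IgG libraries. Pcdhb16, a protocadherin, was also among the 12 (-7.55, adjusted p = 0.213), and its levels are given with the mean of both tissues.

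In most genes with a small p the IgG precipitates differed between the tissues and the Kif5A precipitates did so less. Among the 800 genes at an unadjusted p under 0.05, the SN over DR ratio was farther from 0 for IgG than for Kif5A in 760 (95.0%), against 71.2% of all genes tested. The median size of that log2 ratio was 0.70 for Kif5A and 5.21 for IgG in the 800 genes, and 0.44 for Kif5A and 0.81 for IgG over all genes. The lowest of the 4 group means was an IgG mean in 746 of the 800 (93.2%), against 58.4% of all genes. It was that of SN IgG in 442 of the 460 positive genes and that of DR IgG in 304 of the 340 negative ones. At least 1 IgG library had no count in 456 of the 800 (57.0%), against 21.7% of all genes. The difference is computed from these same groups, so the shares describe which groups carried it and test nothing.

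**Figure D2:**
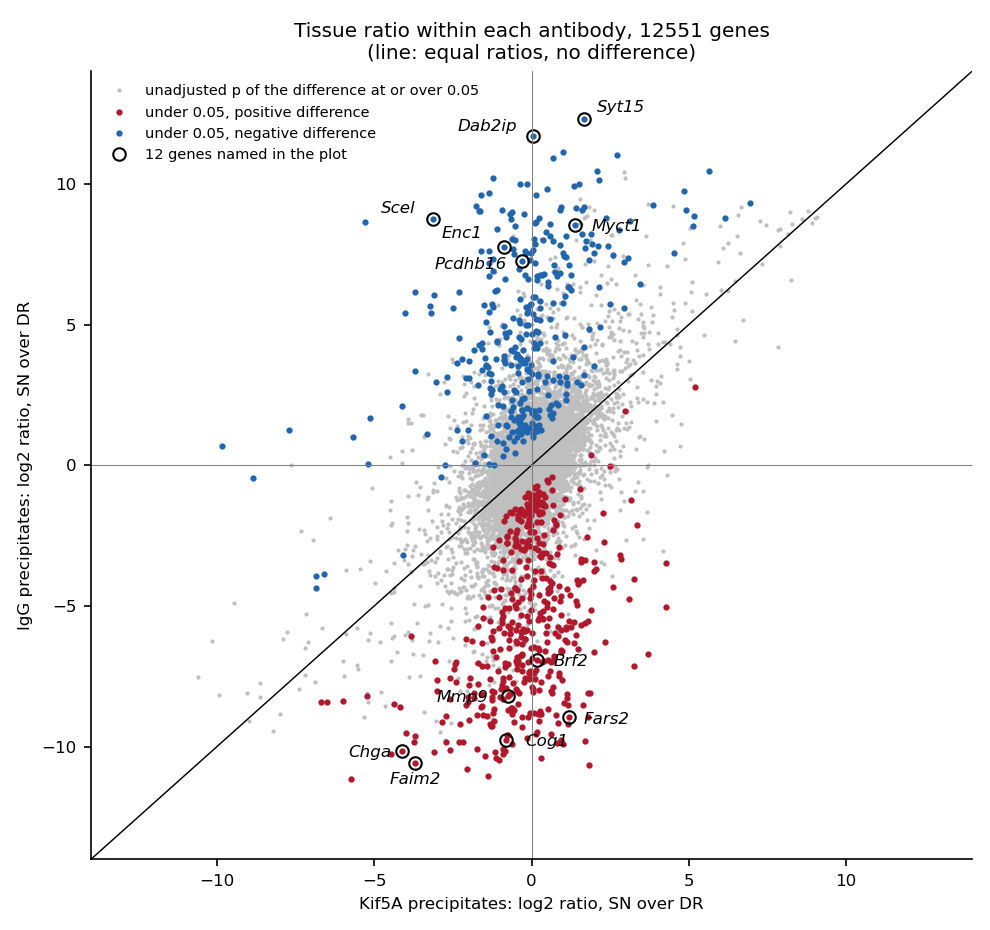
Log2 ratio of SN over DR in Kif5A precipitates (horizontal axis) and in IgG precipitates (vertical axis) for the 12551 genes, with the 800 at an unadjusted p under 0.05 in colour and 12 named genes circled; genes with a group at 0 are drawn at their fitted values. On the line both antibodies differ equally between tissues, and the coloured genes spread along the vertical axis, with median sizes of 5.21 for IgG and 0.70 for Kif5A.

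The inputs place these levels. In the 24 genes that the rule for small p-values chose, 12 of each direction, the mean Kif5A level lay within 4-fold of the mean input level in both tissues (log2 of the level plus a pseudocount of 0.5 CPM). The mean SN IgG level did so in 4 of the 12 positive genes and the mean DR IgG level in 2 of the 12 negative genes. The IgG level of the other tissue did so in 10 of the 12 positive genes (DR IgG) and 6 of the 12 negative genes (SN IgG). The 24 genes were chosen by values of these same precipitates, so the counts test nothing. Over all genes tested, 12416 had a Kif5A level and 11600 an IgG level within 4-fold of input in sciatic nerve, and 12388 had a Kif5A level and 11687 an IgG level within it in dorsal root. Ctu1 gives an example of moderate level, with 26.4, 6.21 and 23.9 CPM in the sciatic nerve inputs and 22.8, 16.6 and 19.8 CPM in the dorsal root inputs beside the precipitates given above.

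The direction of the ratio turned between the tissues, with no overlap between the 3 Kif5A and the 3 IgG libraries in either, in 60 genes. In 30 of them (0.239% of all genes) Kif5A was higher in sciatic nerve and lower in dorsal root, with differences of 0.91 to 10.72 and a median of 3.00, and in the other 30 (0.239%) it was the reverse, with sizes of 0.75 to 11.68 and a median of 4.09. By comparison, 146 genes (1.16%) had Kif5A libraries higher than IgG libraries in both tissues and 96 (0.765%) lower in both, while 9183 (73.2%) overlapped in both. Kif5A was higher without overlap in 1174 genes in sciatic nerve (9.35%) and 983 in dorsal root (7.83%), and lower in 831 in sciatic nerve (6.62%) and 682 in dorsal root (5.43%). In sciatic nerve with overlap in dorsal root, it was higher in 998 (7.95%) and lower in 705 (5.62%), and in dorsal root with overlap in sciatic nerve, higher in 807 (6.43%) and lower in 556 (4.43%). How many genes would turn in this way without any difference was not computed. The count of 60 is thus a description and no evidence that the ratio differs between the tissues. Of the 60, 24 and 23 had an unadjusted p of the difference under 0.05, and Mmp9 and Dab2ip passed the adjusted one. Mettl2, a methyltransferase of tRNA, had 2.81, 0.848 and 2.30 CPM in sciatic nerve Kif5A precipitates, against 0.0486, 0.0488 and 0.0454 CPM in sciatic nerve IgG precipitates. It had 3.50, 6.55 and 1.40 CPM in dorsal root Kif5A precipitates, against 17.7, 12.2 and 7.23 CPM in dorsal root IgG precipitates, a difference of 6.89 (SE 1.40, adjusted p = 0.168). Mtfr2, a regulator of mitochondrial fission, had 5.68, 0.848 and 4.37 CPM in sciatic nerve Kif5A precipitates, against 0, 0 and 0.454 CPM in sciatic nerve IgG precipitates. It had 1.86, 1.67 and 3.62 CPM in dorsal root Kif5A precipitates, against 15.7, 33.8 and 13.4 CPM in dorsal root IgG precipitates, a difference of 7.61 (SE 1.96, adjusted p = 0.388). In the other direction, Nfatc2, a calcineurin-regulated transcription factor, had 4.68, 0.141 and 2.48 CPM in sciatic nerve Kif5A precipitates, against 13.0, 7.18 and 7.40 CPM in sciatic nerve IgG precipitates. It had 0.766, 3.56 and 0.983 CPM in dorsal root Kif5A precipitates, against 0.0668, 0 and 0 CPM in dorsal root IgG precipitates, a difference of -7.83 (SE 2.03, adjusted p = 0.388). The Kif5A and IgG libraries of each tissue were thus on opposite sides, but the test of the difference did not pass for these 3 genes.

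The authors' deposited tables hold their own tests of Kif5A against IgG for each transcript and tissue. In the authors' deposited table of sciatic nerve 1142 transcripts were higher and 136 lower with Kif5A at a false discovery rate under 0.05, and in the authors' deposited table of dorsal root 1282 were higher and 116 lower. Among the 17114 transcripts that both of the authors' deposited tables list, 976 passed in sciatic nerve and 730 in dorsal root, and 119 passed in both. Of these 119, the authors' deposited tables give 100 as higher in both tissues, 11 as lower in both and 8 in opposite directions. The 8 were transcripts of Syt15, Scel, Sgip1, Oasl2, Ampd3, Ppip5k1, March3 and Nmt2. For the Oasl2 transcript, of an interferon-induced gene, the authors' deposited tables give log2 ratios of 7.89 in sciatic nerve and -5.35 in dorsal root. Its counts were 36, 14 and 35 in SN Kif5A libraries, against 0 in each SN IgG library, and 0, 15 and 4 in DR Kif5A libraries, against 220, 84 and 157 in DR IgG libraries. For the March3 transcript, of a membrane-bound ubiquitin ligase, they give -6.48 in sciatic nerve and 6.36 in dorsal root in the authors' deposited tables. Its counts were 8, 19 and 0 in SN Kif5A libraries, against 705, 103 and 210 in SN IgG libraries, and 23, 4 and 10 in DR Kif5A libraries, against 0 in each DR IgG library. Tested directly on transcripts with edgeR, the difference passed for none of the 8, with adjusted p-values from 0.0886 (Syt15) to 0.402 (Ppip5k1). Summed per gene, 6 of the 8 had an adjusted p of 0.843 or more, with a difference of 2.80 for Oasl2 and 0.03 for Nmt2, against 12.67 and -8.27 for the listed transcripts.

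The mean of the 2 ratios was also tested, and 13 genes (0.104%) passed, 12 (0.0956%) with a higher and 1 (0.00797%) with a lower level with Kif5A. A gene can pass this test on one tissue alone: Fars2 had ratios of 9.40 in sciatic nerve and -0.75 in dorsal root, and the dorsal root antibodies overlapped for Brf2. At an unadjusted p under 0.05 there were 1260 (10%), 828 higher (6.6%) and 432 lower (3.44%). Gimap3, a GTPase of the immunity-associated family of lymphocytes (chromosome 6, 48764464 to 48770851), had 2.69, 6.36 and 4.67 CPM in SN Kif5A libraries and 5.09, 14.6 and 5.28 CPM in DR Kif5A libraries, and no count in any IgG library. The Kif5A level was at least 99.8-fold higher in sciatic nerve and at least 124-fold higher in dorsal root (adjusted p = 0.0382). The inputs held 0.987, 0.690 and 0.398 CPM in sciatic nerve and 1.68, 2.89 and 2.32 CPM in dorsal root. Pcdhb16, whose protein joins cells to each other (chromosome 18, 37477814 to 37483038), had 6.06, 4.86 and 5.97 CPM in sciatic nerve Kif5A precipitates, against 1.22, 1.12 and 0.863 CPM in sciatic nerve IgG precipitates. It had 5.64, 6.43 and 8.59 CPM in dorsal root Kif5A precipitates, against 0 CPM in each of the 3 dorsal root IgG precipitates, a mean ratio that passed (adjusted p = 0.0382) and a difference that did not (-7.55, adjusted p = 0.213). The Kif5A libraries of Pcdhb16 lay between 4.86 and 8.59 CPM in both tissues. Limk1, a kinase that controls actin filaments through cofilin, Prdm1, a repressor of transcription in plasma cells, Jade1, of a histone acetyltransferase complex, Clec2l, a C-type lectin relative, Sh3bgrl2, Brf2, Fars2 and 3 predicted genes made up the rest of the higher ones. Among these, Clec2l had 5.68, 4.43 and 2.60 CPM in sciatic nerve Kif5A precipitates, against 0.0486, 0.0488 and 0.0908 CPM in sciatic nerve IgG precipitates. It had 15.3, 26.8 and 27.2 CPM in dorsal root Kif5A precipitates, against 4.54, 13.7 and 10.2 CPM in dorsal root IgG precipitates. The call of Jade1 rested on the transcripts counted. Its mean ratio was 7.09 (quasi-likelihood test, adjusted p = 0.0487), and 4.78 (adjusted p = 0.139) over all listed transcripts.

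The gene lower with Kif5A in the mean of both tissues was Mir142hg, the host transcript of the microRNA miR-142 of blood cells (chromosome 11, 87755577 to 87757270). It had 7.18, 8.30 and 3.78 CPM in sciatic nerve Kif5A precipitates, against 60.9, 68.5 and 13.3 CPM in sciatic nerve IgG precipitates. It had 20.4, 25.6 and 22.0 CPM in dorsal root Kif5A precipitates, against 154, 186 and 90.8 CPM in dorsal root IgG precipitates. No Kif5A library reached an IgG library of its tissue, the mean ratio was -2.72 (SE 0.40, adjusted p = 0.0382), and the difference between tissues was -0.22 (SE 0.76). The inputs, at 8.94, 8.62 and 2.22 CPM in sciatic nerve and 42.3, 27.9 and 11.1 CPM in dorsal root, overlapped with the Kif5A libraries in both tissues. Snap25, a SNARE protein of synaptic vesicle fusion, and Anp32b, a histone chaperone, had mean ratios of -0.92 (adjusted p = 0.0634) and -1.07 (adjusted p = 0.0677), both short of the threshold. All 13 calls of the mean were lost when the replicate number was a block, and 0 to 44 genes passed when single libraries were left out: 14 without DR IgG replicate 3, 44 without SN IgG replicate 3 and none without any other.

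The mRNAs of kinesin-1 itself did not pass the test of the difference. Kif5a (chromosome 10, 127225696 to 127263348) had 13.6, 20.7 and 55.1 CPM in sciatic nerve Kif5A precipitates, against 4.77, 6.55 and 6.40 CPM in sciatic nerve IgG precipitates. It had 121, 175 and 102 CPM in dorsal root Kif5A precipitates, against 67.3, 19.7 and 139 CPM in dorsal root IgG precipitates. The SN Kif5A libraries lay above the SN IgG libraries and the dorsal root antibodies overlapped, with ratios of 2.38 in sciatic nerve and 0.86 in dorsal root and a difference of 1.52 (SE 0.91, adjusted p = 0.974). The antibody binds the protein, so the level of this mRNA does not check the precipitation. Kif5b, the ubiquitous heavy chain, Kif5c, the other neuronal one, and the light chains Klc1 and Klc4, which bind cargo, had differences of 0.18, 0.08, -0.39 and 0.65. Mtor, a growth-controlling kinase, had a difference of -1.24 (SE 0.69, adjusted p = 0.931), with 44.6, 53.4 and 36.9 CPM in sciatic nerve Kif5A precipitates, against 85.8, 150.0 and 41.2 CPM in sciatic nerve IgG precipitates. It had 24.9, 50.1 and 41.3 CPM in dorsal root Kif5A precipitates, against 22.9, 49.9 and 28.1 CPM in dorsal root IgG precipitates, and the antibodies overlapped in both tissues. Ncl, the RNA-binding protein nucleolin, and Kpnb1, importin beta, had differences of 0.59 (SE 0.43) and 0.45 (SE 0.36). Klc2 was not analysed here.

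The lists of genes are described by their counts and medians beside those of all genes tested, of which 6329 (50.4%) had a positive difference, with a median of 0.0066. Of the members of the 37 lists, Mmp9 and Dab2ip passed the test and no other did. Genes of the mitochondrial respiratory chain, which makes the proton gradient for ATP synthesis, were mostly on the negative side. The difference was positive for 4 of 37 genes of complex I (NADH dehydrogenase; median -0.56), 1 of 4 of complex II (-0.54), 0 of 9 of complex III (-0.33), 1 of 12 of complex IV (cytochrome oxidase; -0.81) and 6 of 17 of the ATP synthase (-0.36). For Ndufa9, a subunit of complex I, the levels were 174, 163 and 153 CPM in sciatic nerve Kif5A precipitates, against 471, 292 and 186 CPM in sciatic nerve IgG precipitates. It had 114, 137 and 162 CPM in dorsal root Kif5A precipitates, against 123, 128 and 105 CPM in dorsal root IgG precipitates, a difference of -1.18 (SE 0.44, adjusted p = 0.65). For Cox5a, a subunit of complex IV, the levels were 154, 211 and 241 CPM in sciatic nerve Kif5A precipitates, against 269, 339.5 and 219.7 CPM in sciatic nerve IgG precipitates. It had 93.7, 108 and 329.7 CPM in dorsal root Kif5A precipitates, against 89.0, 80.2 and 203 CPM in dorsal root IgG precipitates, with the antibodies overlapping in both tissues and a difference of -0.96 (SE 0.69, adjusted p = 1). The lowest member, Cox7a2l (fitted difference -9.21, adjusted p = 0.561), had 72 counts over the DR Kif5A libraries and none over the DR IgG libraries, and 22 over the SN Kif5A libraries, against 87 over the SN IgG libraries, nearly all of them in replicate 3.

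These medians shifted when a single dorsal root library numbered 3 was left out and that of the other antibody was kept. Summed levels of complex I were 5138, 6829.5 and 7035 CPM in SN Kif5A libraries, against 8160.4, 6926 and 7759 CPM in SN IgG libraries. They were 3275, 4118 and 8713 CPM in DR Kif5A libraries, against 2674, 3193 and 6827 CPM in DR IgG libraries, so the libraries numbered 3 were the highest of both dorsal root groups. The median difference of complex I was -1.19 without DR IgG replicate 3 and 0.11 without DR Kif5A replicate 3, and that of complex IV -1.56 and -0.0061 without the same libraries. With both left out, together with the other libraries numbered 3, the medians were -0.73 for complex I and -0.91 for complex IV. Ribosomal proteins sat on the same side by less: 27 of 76 mitochondrial ribosomal proteins were positive (median -0.30) and 26 of 81 cytosolic ones (median -0.17). Many of these mRNAs are short: 21 of 37 tested genes of complex I, 9 of 12 of complex IV, 11 of 17 of the ATP synthase, 28 of 76 mitochondrial and 53 of 81 cytosolic ribosomal proteins had a transcript length under 1000 nt. Over all genes tested, 34.9% of the 455 under 500 nt had a positive difference (median -0.35), as did 39.8% of the 1213 of 500 to 1000 nt (median -0.24), and the part of length in the medians of the lists was not tested. The mitochondrial ribosomal median was -0.53 without DR IgG replicate 3 and 0.12 without DR Kif5A replicate 3. The cytosolic median ran from -0.73 without DR IgG replicate 3 to 0.43 without DR Kif5A replicate 3. Enzymes of the citric acid cycle, which feeds the chain, had a median of -0.03 with 8 of 16 positive, a sign that turned with library size scaling alone.

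**Figure D3:**
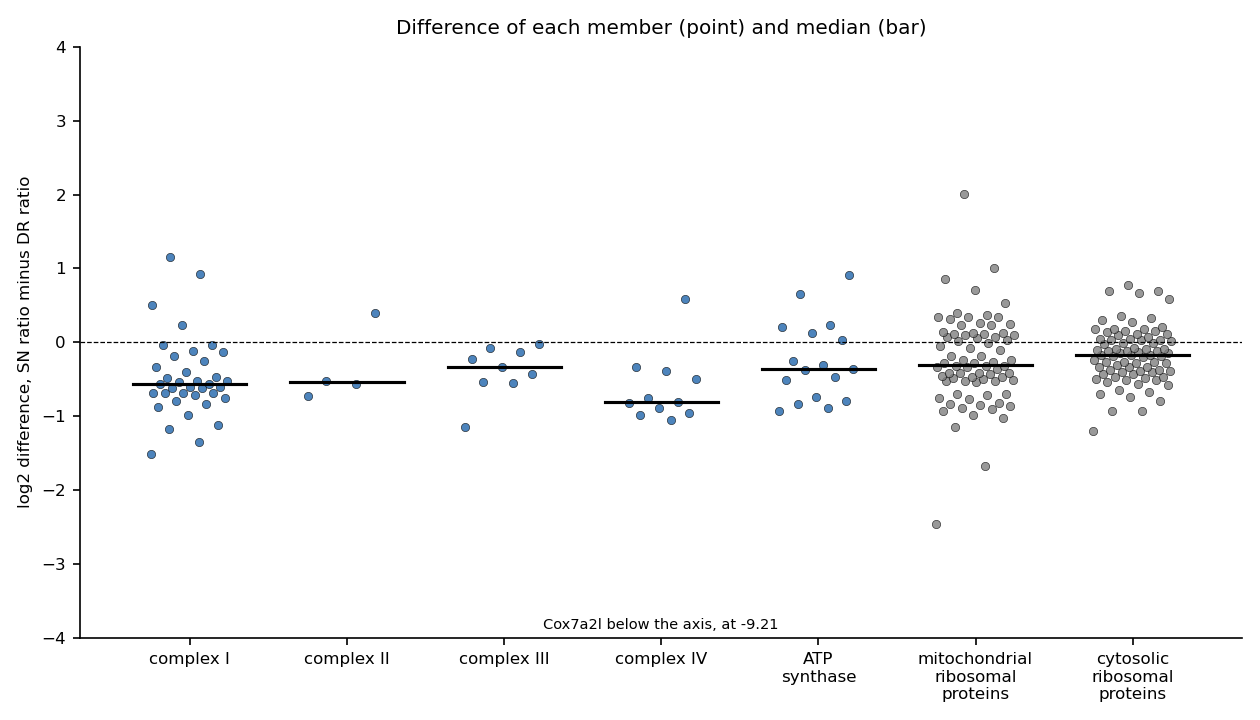
Log2 difference (SN ratio minus DR ratio, vertical axis) of each tested member of 7 lists (points) with the median of the list (bar). Medians run from -0.81 in complex IV to -0.17 in cytosolic ribosomal proteins, the dashed line marks no difference, and Cox7a2l lies below the axis at -9.21.

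Among the cell type markers, those of red cells and of myelinating Schwann cells lay on the positive side. All 8 erythroid genes tested were positive, with a median of 1.10; their summed levels were 767, 726 and 675 CPM in SN Kif5A libraries, against 368, 288 and 436 CPM in SN IgG libraries, with no overlap. They were 1178, 2209 and 3530.0 CPM in DR Kif5A libraries, against 990.1, 2254 and 3584 CPM in DR IgG libraries, where they overlapped. Slc4a1, the anion exchanger of red cells, had 1.25, 1.60 and 0.236 CPM in sciatic nerve Kif5A precipitates, against 0.195, 0.293 and 0.0908 CPM in sciatic nerve IgG precipitates; it had 49.0, 84.5 and 62.8 CPM in dorsal root Kif5A precipitates, against 47.2, 74.2 and 77.3 CPM in dorsal root IgG precipitates. Its difference was 2.40 (SE 0.89, adjusted p = 0.63), and that of the beta globin Hbb-bs, which has near copies, was 1.40 (SE 0.77, adjusted p = 0.917). The median of the list stayed between 0.67 and 1.54 when single libraries were left out.

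Of the myelin genes, 18 of 20 were positive (median 0.53). Prx, periaxin of the Schwann cell sheath, had 16.4, 8.58 and 41.6 CPM in sciatic nerve Kif5A precipitates, against 7.93, 1.90 and 9.62 CPM in sciatic nerve IgG precipitates. It had 53.9, 69.6 and 30.1 CPM in dorsal root Kif5A precipitates, against 142, 59.7 and 42.0 CPM in dorsal root IgG precipitates, a difference of 2.42 (SE 1.03, adjusted p = 0.721). Summed levels of the list were 7199, 12462 and 28314 CPM in SN Kif5A libraries, against 6633, 10193 and 27139 CPM in SN IgG libraries, with replicate 3 far above the others of its group in both. They were 25458, 20515 and 27117 CPM in DR Kif5A libraries, against 25549, 19776 and 26372 CPM in DR IgG libraries. The median was -0.01 without SN Kif5A replicate 3 and 1.13 without SN IgG replicate 3. Non-myelinating Schwann cell markers were positive in 6 of 12, with a median of -0.04.

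Adipocyte and endothelial markers lay on the negative side, while those of pericytes and smooth muscle (7 of 12 positive, median 0.12) and of neutrophils were mixed. Adipocyte markers were positive in 2 of 17 (median -0.65), with a median of -1.02 without SN Kif5A replicate 1 and -0.099 without SN IgG replicate 1. They had summed levels of 99666, 68943 and 13529.5 CPM in SN Kif5A libraries, against 129489, 91282 and 44298 CPM in SN IgG libraries. They were 1219 to 1382 CPM in DR Kif5A libraries, against 1225 to 1459 CPM in DR IgG libraries, a small share in dorsal root. Acsl1, which activates fatty acids, had 262, 299.6 and 163 CPM in sciatic nerve Kif5A precipitates, against 472, 504 and 394 CPM in sciatic nerve IgG precipitates. It had 63.6, 63.0 and 54.0 CPM in dorsal root Kif5A precipitates, against 23.8, 36.6 and 57.7 CPM in dorsal root IgG precipitates, a difference of -1.54 (SE 0.47, adjusted p = 0.494), and the part of adipocyte RNA in this value was not tested. The neutrophil list, to which Mmp9 belongs, had 6 of 11 positive genes and a median of 0.11. Its summed levels were 36.7, 19.0 and 34.7 CPM in SN Kif5A libraries, against 51.4, 45.7 and 10.8 CPM in SN IgG libraries, and 945, 1202 and 1394 CPM in DR Kif5A libraries, against 925, 1577 and 1298 CPM in DR IgG libraries. Mmp9 is part of these sums, with a mean of 17.7 CPM in SN Kif5A libraries and 0.209 CPM in SN IgG libraries. For the alarmin S100a8 the sign was opposite to that of Mmp9, with 2.62, 4.76 and 1.24 CPM in sciatic nerve Kif5A precipitates, against 26.6, 24.1 and 1.32 CPM in sciatic nerve IgG precipitates, and a difference of -2.49 (SE 1.13, adjusted p = 0.776). Macrophage markers were positive in 13 of 18 (median 0.29) and endothelial markers in 3 of 12 (median -0.48).

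**Figure D4:**
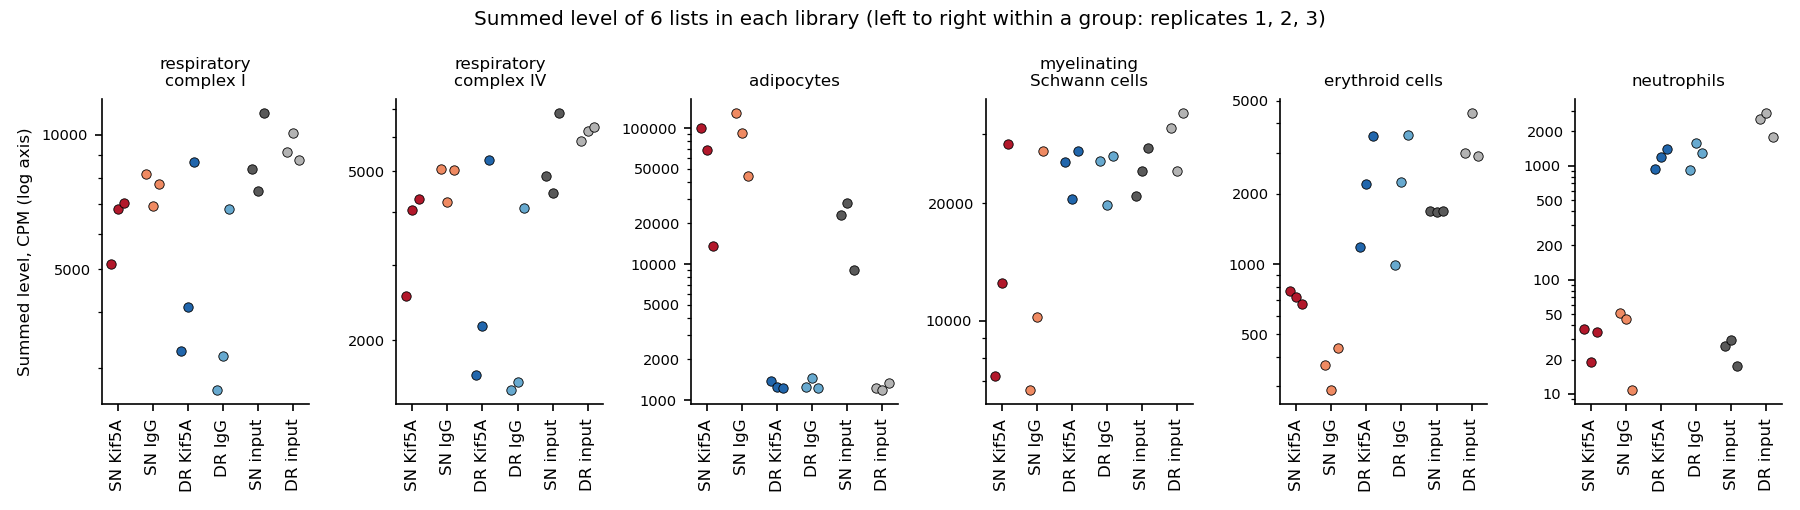
Summed level in CPM (log axes, a separate range for each list) of 6 lists in each of the 18 libraries, 3 points a group from replicate 1 on the left to 3 on the right. Erythroid markers lie at 675 to 767 CPM in SN Kif5A and 288 to 436 CPM in SN IgG libraries, while the complexes I and IV of dorsal root are highest in replicate 3 with both antibodies.

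Sensory neuron markers lay on the negative side, and the lists of axons and transport had medians of 0.14 to 0.23. Sensory neuron markers were positive in 3 of 11 (median -0.52). Ntrk2, the receptor of BDNF, had 307, 356 and 189.7 CPM in sciatic nerve Kif5A precipitates, against 402, 339 and 302 CPM in sciatic nerve IgG precipitates. It had 369.8, 298 and 206 CPM in dorsal root Kif5A precipitates, against 137, 162 and 122 CPM in dorsal root IgG precipitates, with no overlap in dorsal root only, and a difference of -1.36 (SE 0.43, adjusted p = 0.507). Ntrk2 is also made by glia, and the median of the list was -1.06 without DR IgG replicate 3 and 0.08 without DR Kif5A replicate 3. Genes of the axonal cytoskeleton were positive in 17 of 23 (median 0.23), among them Tubb3, the neuronal beta tubulin, with 4.81, 3.11 and 3.90 CPM in sciatic nerve Kif5A precipitates, against 0.681, 0 and 0.0454 CPM in sciatic nerve IgG precipitates. Tubb3 had 26.3, 11.9 and 60.6 CPM in dorsal root Kif5A precipitates, against 30.7, 37.9 and 23.7 CPM in dorsal root IgG precipitates, a difference of 3.89 (SE 1.45, adjusted p = 0.641). Kinesins and their adaptors were positive in 15 of 21 (median 0.23), proteins of RNA granules in 26 of 35 (median 0.23), dynein and dynactin in 10 of 19 (median 0.14) and synaptic and dense-core vesicles in 11 of 21 (median 0.19). The median turned with 1 library for 3 of these lists: it was -0.14 without SN Kif5A replicate 3 and 0.73 without SN IgG replicate 3 for the axonal cytoskeleton. For synaptic and dense-core vesicles it was -0.17 without DR IgG replicate 3 and 0.63 without SN IgG replicate 3, and for dynein and dynactin -0.028 without SN IgG replicate 1 and 0.31 without SN IgG replicate 3. Stau2, a double-stranded RNA-binding protein of transport granules, had 3.94, 1.74 and 3.01 CPM in SN Kif5A libraries and no count in SN IgG libraries, at least 58.6-fold higher, with 0.274, 6.09 and 2.23 CPM in dorsal root Kif5A precipitates, against 0.0668, 0 and 5.45 CPM in dorsal root IgG precipitates, where 1 IgG library held nearly all counts; its adjusted p was 0.644.

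The lists to which Brf2, Fars2, Cog1 and Dab2ip belong had medians between -0.11 and 0.03. Beside Brf2, 12 of 25 genes of RNA polymerase III were positive (median -0.11), beside Fars2, 14 of 29 synthetases (median -0.05), and beside Cog1, 8 of 14 tethers (median 0.03), counts that include the named gene. The Ras GTPase activators, the list of Dab2ip, were positive in 4 of 8 (median 0.02). Across the 37 lists, 16 medians were positive and 21 negative, and 9 kept their sign whichever of the 12 libraries was left out. These were the erythroid, macrophage, kinesin and RNA granule lists on the positive side and complexes II and IV, adipocytes, endothelium and proteasome on the negative side.

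**Figure D5:**
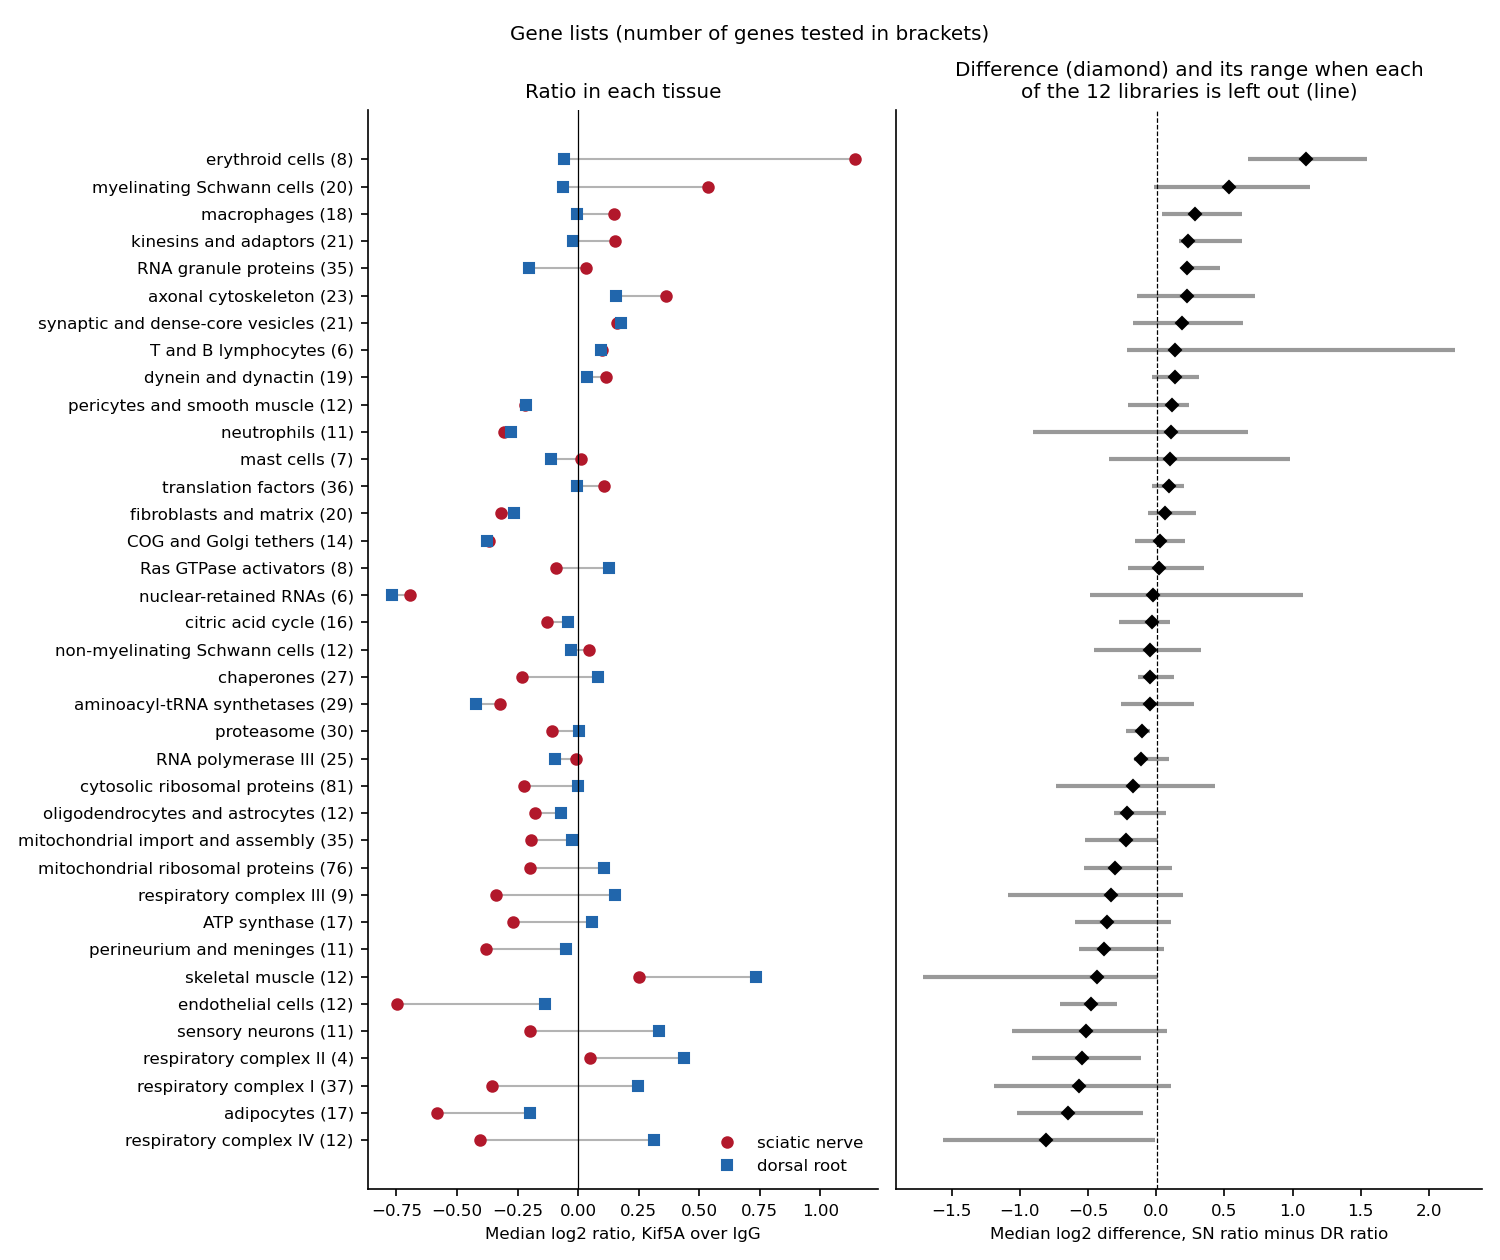
For each of the 37 lists, the median log2 ratio of Kif5A over IgG in sciatic nerve (circles) and dorsal root (squares) on the left, and on the right the median log2 difference (diamonds) with its range when each of the 12 libraries is left out in turn (lines). The medians run from -0.81 for complex IV to 1.10 for erythroid cells, and most lines cross the median of all genes (dashed, 0.0066).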

How the data were processed

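RNA was measured in 18 libraries of mouse axoplasm, of which the 12 precipitates entered the tests. The authors deposited raw counts per Ensembl transcript in 1 table a tissue, beside the log2 fold changes, adjusted and raw p-values of their own tests, which the authors deposited too. The submitters' processing notes name mm10, GRCm38, edgeR and CASAVA 1.8.2. Aligner, counter, annotation release and strand setting: not given in the sources used here, so reads of overlapping or antisense genes and of near-identical copies cannot be told apart. The deposited tables also held 42 per-sample columns that match no library used here, and these were left out. Between 0.138% and 0.237% of the counts stood in unnamed entries, which entered neither library sizes nor tests. The 16878 named transcripts in both tables were summed per gene name. They held 98.804% to 99.862% of the counts, and named counts per library ran from 11584418 to 22580824.

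Genes were filtered with filterByExpr and tested with edgeR 4.0.16 (R 4.3.3, quasi-likelihood, robust, TMM factors), with Benjamini-Hochberg adjustment over 12551 genes at 0.05; the common biological coefficient of variation was 0.783. Levels (CPM) are relative to the library size times TMM factors over all 18 libraries, and summed levels of lists use the library size alone. The SE is the size of the log2 value divided by the square root of the F statistic of the quasi-likelihood test. Where a group was at or near 0, it does not measure how well the value is known. A group at 0 was set to a floor of 3 counts over its libraries. Intervals are 95% exact Poisson ones and, since reads carried no molecular identifiers, cover counting error only. Positions are those of GRCm38 in GENCODE vM21. Tables and figures were made with Python 3.11.15, pandas 2.3.3, scipy 1.17.1 and matplotlib 3.10.9, and the script was tested on simulated data. There, genes over 5 CPM were changed in SN Kif5A libraries alone, 67 by 4-fold, 67 by 16-fold and 66 by 64-fold. The test of the difference called 5.97%, 50.7% and 83.3% of these. Beside those calls it made 4 false ones among the other genes, a number that cannot be set against the 2 calls made here. Differences in IgG libraries, which carried most small p-values here, were not simulated. Few calls thus do not mean few differences, and single calls can be false. Alternatives used limma 3.58.1, DESeq2 1.42.0, other scalings and filters, a replicate block and each library left out.

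Named were Kif5a and 8 set genes, the genes called, and up to 12 genes of each direction with the smallest p of the difference, a mean of at least 5 CPM in the highest of the 4 groups and no overlap between antibodies in the tissue whose ratio is farther from 0. Up to 5 genes in each direction that crossed between tissues, 4 higher and 4 lower for the mean of both, and 3 members of each list with the smallest p were also named. Predicted genes were counted and not named, and 1 gene that the rule chose is not reported here. A few others were named after their values were seen. The comparison, the lists and the genes were chosen with earlier results of these data known. The labels do not say that equal replicate numbers share animals across libraries. Deviations of same-numbered libraries correlated at -0.020 to 0.220, over 0.1 in 5 of 18 pairs, and 12 of 18 correlated best with their own number. These values do not settle whether the numbers pair the samples. The main fit did not pair them, and with the replicate number as a block no gene passed for the difference.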

Additional observations from a re-analysis of the deposited data

Results flagged for a closer look

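The ratio of Kif5A over IgG differed between sciatic nerve and dorsal root by the test of the difference for Mmp9 (7.44, adjusted p = 0.0364) and Dab2ip (-11.68, adjusted p = 0.0364), both from edgeR's quasi-likelihood test without a replicate block. The value of Dab2ip rests on a group at 0 and was -4.69 (adjusted p = 0.534) over all listed transcripts. With each of the 12 libraries left out in turn, Mmp9 was called in 3 fits and Dab2ip in 2. With the replicate number as a block neither was called (lowest adjusted p of any gene 0.116, and 0.693 with a block within each tissue), and the labels do not say whether equal numbers share animals.

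In 60 genes, Mmp9 and Dab2ip included, the 3 Kif5A libraries all lay on one side of the 3 IgG libraries in sciatic nerve and on the other side in dorsal root, 30 in each direction (0.239% of all genes each). More genes lay on the same side in both tissues, 146 higher with Kif5A (1.16%) and 96 lower (0.765%). Some genes separate in this way without any difference, and the count of 60 was not tested against that. The count is therefore no evidence that the ratio differs between the tissues. Predicted genes aside, the 8 others of the 60 with the largest differences in each direction, 4 and 4, among those at 5 CPM or more in the highest group did not pass the test of the difference. The difference was positive for Fars2 (10.15, adjusted p = 0.0526), Mettl2 (6.89, 0.168), Mtfr2 (7.61, 0.388) and Gpr19, an orphan receptor (5.79, 0.574). It was negative for Syt15 (-10.64, 0.0838), Myct1 (-7.15, 0.0867), Bik (-7.47, 0.155) and Nfatc2 (-7.83, 0.388). Gpr19 had 1.94, 2.26 and 5.38 CPM in sciatic nerve Kif5A precipitates, against 0.535, 0 and 0 CPM in sciatic nerve IgG precipitates. It had 2.02, 2.24 and 1.76 CPM in dorsal root Kif5A precipitates, against 10.7, 4.38 and 4.13 CPM in dorsal root IgG precipitates.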

How the results depend on the processing

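Against 2 genes called for the difference, edgeR called 4 with DESeq2 size factors, 4 with library size alone, 4 with a filter of 1 CPM in 6 libraries, 38 with all 18 libraries in the fit, and 144 with its likelihood ratio test. DESeq2 called 187 and limma-voom 1. None was called over all transcripts of each table, on transcripts in place of gene sums, or over genes complete in both tables (796, 1221 and 655 at an unadjusted p under 0.05). Against 6 calls within sciatic nerve there were 405 with DESeq2, 128 with all 18 libraries and 331 with the likelihood ratio test. Against 0 within dorsal root there were 150 with DESeq2, 2 with limma-voom, 16 with all 18 libraries and 128 with the likelihood ratio test. Against 13 for the mean of both tissues there were 423 with DESeq2, 68 with limma-voom, 213 with all 18 libraries, 359 with the likelihood ratio test and 48 on transcripts. The causes were not tested.

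With the replicate number as a block, the difference had 0 calls (691 at an unadjusted p under 0.05), sciatic nerve 1 and the mean 0, and with a replicate block within each tissue 0, 0 and 0 (642 for the difference). Of 18 comparisons, 12 correlated best with their own number, a hint from the data and not the design.

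Leaving out libraries gave 0 to 24 calls for the difference, 0 to 29 within sciatic nerve, 0 to 2 within dorsal root and 0 to 44 for the mean. The most came without SN IgG replicate 3, except within dorsal root, where it was DR IgG replicate 3. No named gene had opposite signs in the main fit and an alternative when it was called in either. Sign changes of genes called in neither were not counted. Dab2ip lost its call under 16 alternatives (-11.99 to -4.69) and Mmp9 under 17 (6.86 to 8.53). The likelihood ratio test, the fit on transcripts and the fit on complete genes were added after seeing the data. Counts of 3 or fewer in an IgG group limit the size of most large differences.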

Other observations

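The share of genes with an unadjusted p of the difference under 0.05 varied with level. It was 10.8% of 1497 genes whose highest group mean was 2 to 5 CPM and 3.49% of 2665 genes at 100 CPM or more. The median difference, negative in genes with transcripts under 1000 nt, was 0.12 in 2663 genes of 2000 to 3000 nt (55.0% positive). Genes are not independent replicates, and these values carry no test.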
